A study of Rattus norvegicus with 9 samples.

Results

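The osteocyte genes described here are a fixed list of 8 genes, Sost, Dmp1, Phex, Mepe, Fgf23, Pdpn, Dkk1 and Fam20c, out of the 23026 genes in the count table, and they were chosen by name as genes that mark or are made by osteocytes. Each was found once by its symbol, and all 8 passed the filter on low counts that left 16874 genes for testing. The NCBI gene identifiers in the files were 80722 for Sost, 25312 for Dmp1, 25512 for Phex, 79110 for Mepe, 170583 for Fgf23, 54320 for Pdpn, 293897 for Dkk1 and 304334 for Fam20c. Bone RNA was sequenced from female Sprague–Dawley rats in 3 groups with 3 libraries each. The Sham group had fat beside the ovary removed and was given the vehicle, sodium carboxymethyl cellulose (CMC-Na). OVX rats were ovariectomized on both sides, a rat model of postmenopausal osteoporosis, and were given the same vehicle. The OVX-AS-IV-High group was ovariectomized and given 80 mg/kg of AS-IV (astragaloside IV), a saponin of Astragalus root. Per the study's methods, the rats were 8 weeks old when bought and had a period of acclimatization before surgery, and gavage began 6 weeks after surgery and lasted 8 weeks. The labels give the vehicle of the 3 Sham libraries as 1%, 2% and 3% CMC-Na, against 1% for the OVX libraries, while the study's methods name a single vehicle, 1% CMC-Na, for both groups. The question behind the comparisons is whether loss of the ovaries, and AS-IV given after it, went with another level of the transcripts by which osteocytes signal. The labels name the tissue as bone, the study's methods name the femur, and the replicates are described there as independent; which part of the bone was taken is not given in the sources used here.

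Osteocytes are osteoblasts that became enclosed in the bone they made. They signal to other bone cells and to the kidney. Sclerostin (Sost) and Dickkopf-1 (Dkk1) are secreted proteins that bind the Wnt co-receptors of the LRP family and so hold back bone formation. FGF23 (Fgf23) is a hormone that osteocytes release into the blood to lower phosphate reabsorption in the kidney, and Phex, Dmp1 and Fam20c are known from inherited disorders in which their loss raises FGF23 and lowers serum phosphate. Mepe and Dmp1 are acidic matrix phosphoproteins of the SIBLING family. Podoplanin (Pdpn, also called E11) is a membrane protein of the early osteocyte and its growing dendrites.

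The sequence before the start of a gene is shown for Mepe, because its transcript varied with that of Dmp1 from library to library. It is also shown for the Wnt antagonists Sost and Dkk1, whose intervals all lay within a 2-fold change in every comparison. The intervals of Pdpn and Fam20c did so too. The stretches shown are the 250 bases before the annotated start, read 5′ to 3′ on the gene's own strand from the RefSeq promoter table of the rat assembly GRCr8. Of the 8 members, 6 were in that table, and for 3 of those, the genes shown, the window ends at the start of the gene. Phex and Fgf23 were not in the table used here.
Mepe: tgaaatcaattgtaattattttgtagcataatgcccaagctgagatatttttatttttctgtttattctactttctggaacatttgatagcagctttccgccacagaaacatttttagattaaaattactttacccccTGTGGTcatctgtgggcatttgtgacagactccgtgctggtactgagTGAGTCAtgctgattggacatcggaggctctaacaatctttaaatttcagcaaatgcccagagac
Sost: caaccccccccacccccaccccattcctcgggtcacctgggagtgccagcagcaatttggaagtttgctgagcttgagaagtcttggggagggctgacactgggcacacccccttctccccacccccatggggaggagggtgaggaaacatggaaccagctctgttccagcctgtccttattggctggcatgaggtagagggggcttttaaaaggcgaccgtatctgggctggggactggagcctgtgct
Dkk1: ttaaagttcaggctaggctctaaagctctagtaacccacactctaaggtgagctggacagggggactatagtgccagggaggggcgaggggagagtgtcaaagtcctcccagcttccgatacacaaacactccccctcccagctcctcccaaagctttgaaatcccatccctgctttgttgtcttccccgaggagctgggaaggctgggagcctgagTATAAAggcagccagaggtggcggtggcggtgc
The windows lie on the minus strand at chr14:5736859-5737108 for Mepe, chr10:87415767-87416016 for Sost and chr1:237798651-237798900 for Dkk1. Capitals mark matches to 3 motifs searched on both strands, TATAAA (the core of a TATA box), TGTGGT (the core bound by RUNX factors) and TGACTCA (an AP-1 site, which reads TGAGTCA on the other strand). The Mepe window held the RUNX core with its first base 112 bases before the start and the AP-1 site 65 bases before it. In the Dkk1 window the TATA core began 33 bases before the start, and the Sost window held none of the 3 motifs. Among 27457 rat promoter windows of this length, TATAAA was in 13.1%, TGTGGT in 14.1% and TGACTCA in 3.98%, so these matches describe letters in a window and not sites in use. CG pairs numbered 3 in the Mepe window, 3 in the Sost window and 5 in the Dkk1 window, against a median of 6 over all windows. On GRCr8, Mepe and Dmp1 lie close together on chromosome 14 in the SIBLING cluster, in the order Spp1, Mepe, Ibsp, Dmp1 and Dspp, with no other protein-coding gene between them.

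The libraries held between 34874880 and 37298250 counts, and values below are counts scaled to library size (CPM) unless FPKM is named. A gene was called at a log2 fold change (log2FC) beyond 1 in either direction with an unadjusted p below 0.05 from the edgeR quasi-likelihood test. The study's results section uses this fold threshold and its methods give 0.58, which was run as an alternative. Over all 16874 genes no gene had a Benjamini-Hochberg adjusted p below 0.05 by edgeR in any of the 3 comparisons, while unadjusted p was below 0.05 for 2775 genes when OVX was set against Sham, for 1089 when OVX-AS-IV-High was set against OVX and for 2978 when it was set against Sham. DESeq2 gave 790, 27 and 951 genes at an adjusted p below 0.05. Calls below therefore rest on an unadjusted p. In bulk bone, fewer cells of a type and less RNA per cell cannot be told apart.

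All 8 members were detected in every library, with at least 38 counts each, at levels that differed widely between the members. Per length (FPKM, all 9 libraries), Mepe was highest at 60.7 ± 20.8 (SD, n = 9) and Dmp1 followed at 38.4 ± 15.4. Sost was at 29.9 ± 7.68 and Fam20c at 15.4 ± 2.83. Pdpn at 6.47 ± 1.42, Phex at 5.66 ± 2.61 and Dkk1 at 5.11 ± 1.17 followed, and Fgf23 was lowest at 1.34 ± 0.762. In this order the ranges of neighbours overlapped, except that all libraries of Fam20c (11.5 to 19.5 FPKM) were above those of Pdpn (4.45 to 8.90 FPKM) and all libraries of Dkk1 (3.40 to 6.53 FPKM) were above those of Fgf23 (0.387 to 2.88 FPKM). The members also differed in how much they varied. Fgf23 had the widest spread of the 8, with a coefficient of variation of 56.9% in CPM over the 9 libraries and a 7.30-fold range, followed by Phex with 46.3% and Dmp1 with 40.2%. Fam20c had the narrowest, with 18.8% and a 1.73-fold range.

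**Figure D1:**
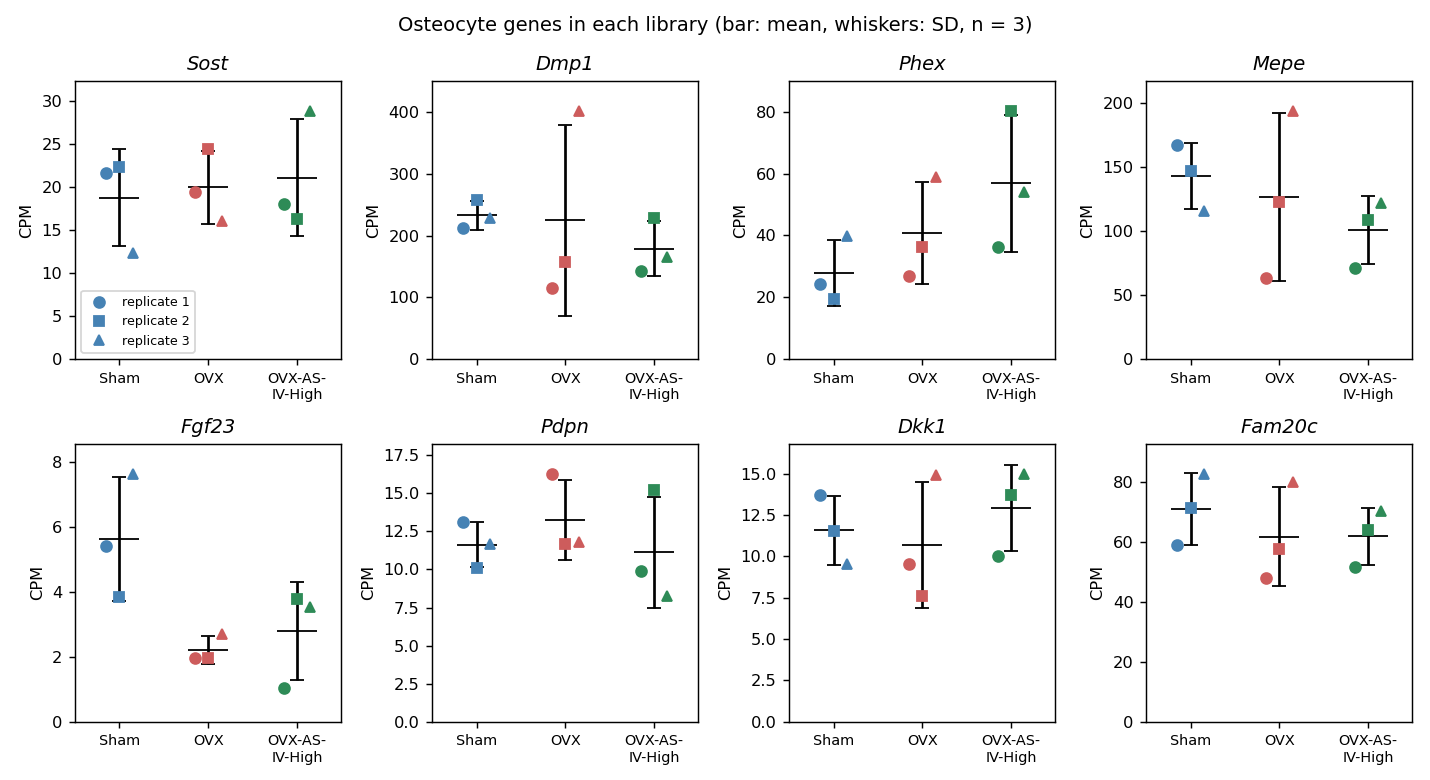
Each panel plots the CPM of 1 osteocyte gene (vertical axis from 0) in the 9 libraries by group, with circles, squares and triangles for replicates 1, 2 and 3, a bar for the mean and whiskers for the SD (n = 3). Fgf23 is the member whose 3 OVX libraries (1.95 to 2.69 CPM) all lie below the 3 Sham libraries (3.84 to 7.64 CPM).

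Fgf23, the phosphate-lowering hormone, was lower after ovariectomy. Its raw counts were 197, 131 and 271 in Sham replicates 1 to 3, 72, 74 and 99 in the OVX replicates, and 38, 140 and 128 in the OVX-AS-IV-High replicates. Scaled to CPM, Sham had 5.41, 3.84 and 7.64, OVX had 1.96, 1.95 and 2.69, and OVX-AS-IV-High had 1.05, 3.79 and 3.52. All 3 OVX libraries were below all 3 Sham libraries, in CPM and in FPKM, and the OVX-AS-IV-High libraries split, with replicate 1 the lowest of all 9 and the other two just under the lowest Sham library. The mean fell from 5.63 ± 1.91 CPM in Sham to 2.20 ± 0.421 in OVX (SD, n = 3). In OVX vs. Sham the log2FC was -1.35 (SE 0.456, 95% interval -2.38 to -0.33), which is 2.56-fold lower, with an edgeR adjusted p of 0.208. DESeq2 put the log2FC at -1.36 with an adjusted p of 0.0466, so the adjusted call depended on the tool. An exact permutation test of the log2 CPM values gave p = 0.1, the smallest that 3 libraries against 3 allow. The call was kept in 8 of 9 fits with a library left out and was lost without Sham replicate 3, where the log2FC was -1.07. Fgf23 was the only member called in OVX vs. Sham, 1 of 8 against 3.11% of all genes tested, and the only member whose groups did not overlap, 1 of 8 against 23.3% of all genes. The count of non-overlapping members was below the background share and is no result about the list.

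Under AS-IV the Fgf23 values lay on both sides of the OVX libraries and all of them stayed below the Sham mean. Between OVX-AS-IV-High and OVX the log2FC was 0.34 (SE 0.454, 95% interval -0.68 to 1.36), with an edgeR adjusted p of 0.952 and 2 of 3 libraries above every OVX library. Leaving out replicate 1 of OVX-AS-IV-High moved this log2FC to 0.73, and leaving out replicate 2 moved it to 0.05. An increase as large as the fall after ovariectomy lies just inside the upper end of that interval, and no change lies inside it too. Against Sham the log2FC was -1.01 (SE 0.452, 95% interval -2.03 to 0.00), with an edgeR adjusted p of 0.283 and an unadjusted p just above the threshold. The groups were apart in CPM by the margin between 3.79 and 3.84, and in raw counts and FPKM they overlapped. Fgf23 was not called in that comparison, but it was with DESeq2, without the filter on low counts and with the replicate block, where the log2FC was -1.01, -1.0 and -1.09.

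Phex, a membrane endopeptidase of osteoblasts and osteocytes whose loss causes X-linked hypophosphatemia, was raised in the OVX-AS-IV-High group against Sham. The Sham libraries had 24.4, 19.5 and 39.9 CPM, the OVX libraries 27.0, 36.4 and 59.0 CPM and the OVX-AS-IV-High libraries 36.4, 80.3 and 53.9 CPM. The 3 groups overlapped, because Sham replicate 3 was above 2 OVX libraries and above OVX-AS-IV-High replicate 1. The group means were 27.9 ± 10.7, 40.8 ± 16.4 and 56.9 ± 22.1 CPM (SD, n = 3). In OVX-AS-IV-High vs. Sham, Phex rose 2.04-fold, a log2FC of 1.03 (SE 0.377, 95% interval 0.18 to 1.87), with an edgeR adjusted p of 0.216 and 2 of 3 libraries above every Sham library. It was the only member called in that comparison, 1 of 8 against 3.15% of all genes tested. The exact permutation p over the 6 libraries was 0.200. The call was kept in 6 of 9 fits with a library left out and was lost without Sham replicate 1 (0.95), without Sham replicate 2 (0.83) or without OVX-AS-IV-High replicate 2 (0.69). Neither step on its own was called, with a log2FC of 0.55 (SE 0.375) from Sham to OVX and 0.48 (SE 0.373) from OVX to OVX-AS-IV-High, at edgeR adjusted p of 0.467 and 0.922. In OVX-AS-IV-High vs. Sham, Fgf23 was the 1 member of 8 whose groups did not overlap in CPM, against 19.9% of all genes.

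The values of Phex and Fgf23 can also be read as a ratio in each library. The ratio of Phex CPM to Fgf23 CPM, chosen after the values were seen, was 4.50, 5.07 and 5.23 in Sham libraries, 13.8, 18.7 and 21.9 in OVX libraries and 34.8, 21.2 and 15.3 in OVX-AS-IV-High libraries. Every library from an ovariectomized rat was above every Sham library, and the 3 Sham libraries were close together although their Fgf23 levels ranged from 3.84 to 7.64 CPM. The geometric mean of the ratio exceeded that of Sham by 3.62-fold for OVX and by 4.56-fold for OVX-AS-IV-High. OVX-AS-IV-High and OVX overlapped, with a 1.26-fold difference. Since the ratio joins the 2 members called against Sham, 1 lower and 1 higher, these values are a description with no test. Of the 28 ratios that the 8 members form, 6 were apart for OVX vs. Sham, 2 for OVX-AS-IV-High vs. OVX and 7 for OVX-AS-IV-High vs. Sham. Fgf23 or Phex was part of all but 1 of these. Single genes were apart in 23.3%, 12.7% and 19.9% of all genes in these comparisons, and ratios of other genes were not computed. The 28 ratios share members, and Fgf23 and Phex are the members called against Sham, so these counts are no result about the ratios. Both comparisons with Sham share the Sham libraries.

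**Figure D2:**
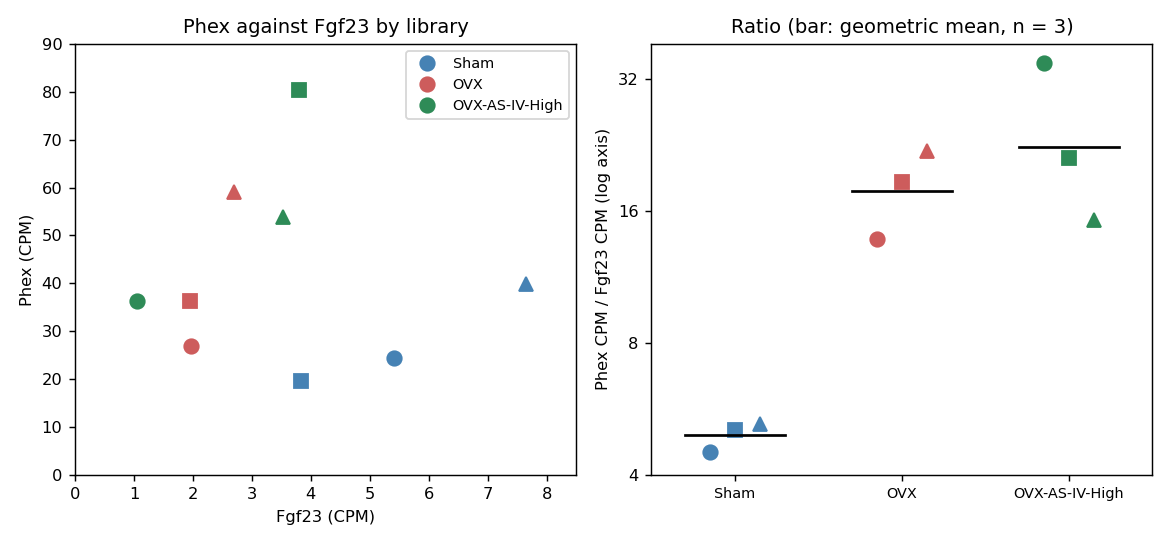
The left panel plots Phex CPM against Fgf23 CPM for each of the 9 libraries, and the right panel plots their ratio on a log axis by group, with a bar at the geometric mean (n = 3); circles, squares and triangles are replicates 1, 2 and 3. The Sham ratios lie between 4.50 and 5.23 and those of both ovariectomized groups between 13.8 and 34.8.

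Dmp1 and Mepe, the matrix phosphoproteins among the members, were not called in any comparison, and their spread was widest in OVX. Dmp1 stood at 212, 258 and 229 CPM in the Sham libraries, 115, 157 and 402 CPM in those of OVX and 143, 229 and 165 CPM in those of OVX-AS-IV-High. OVX replicate 3 was the highest of the 9 libraries and OVX replicate 1 the lowest, so the OVX group lay on both sides of the 3 Sham libraries. The log2FC in OVX vs. Sham was -0.05 (SE 0.398, 95% interval -0.95 to 0.85), with an edgeR adjusted p of 0.959, and without OVX replicate 3 it was -0.77. Against Sham, OVX-AS-IV-High had a log2FC of -0.38 (95% interval -1.28 to 0.52), and against OVX it had -0.33 (-1.23 to 0.57). Without OVX replicate 3 the latter was 0.39, so its direction rested on 1 library.

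Mepe, like Dmp1, was lowest in replicate 1 of each ovariectomized group. The Sham libraries had 167, 147 and 116 CPM, the OVX libraries 63.0, 123 and 194 CPM and the OVX-AS-IV-High libraries 71.0, 109 and 122 CPM. In Sham, replicate 1 was the highest library, and all groups overlapped. The log2FC was -0.18 (SE 0.357, 95% interval -0.98 to 0.62) for OVX vs. Sham, -0.33 (-1.13 to 0.47) for OVX-AS-IV-High vs. OVX and -0.51 (-1.32 to 0.29) for OVX-AS-IV-High vs. Sham, with edgeR adjusted p of 0.815, 0.946 and 0.483. For Dmp1 and Mepe, a 2-fold decrease lay inside the intervals of both comparisons with OVX-AS-IV-High and just outside those of OVX vs. Sham, and a 2-fold increase lay outside all of them.

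Fam20c, the Golgi kinase that phosphorylates secreted proteins including the SIBLINGs and FGF23, had the narrowest spread of the members over the libraries. The Sham libraries had 59.1, 71.4 and 83.0 CPM, the OVX libraries 47.9, 57.6 and 80.3 CPM and the OVX-AS-IV-High libraries 51.6, 64.0 and 70.4 CPM. OVX replicates 1 and 2 and OVX-AS-IV-High replicate 1 were below all of Sham, and the other libraries of both groups lay within the Sham range. In OVX vs. Sham the log2FC was -0.20 (SE 0.204, 95% interval -0.66 to 0.26), for OVX-AS-IV-High vs. OVX it was 0.00 (-0.46 to 0.46) and for OVX-AS-IV-High vs. Sham -0.20 (-0.66 to 0.26), with edgeR adjusted p of 0.627, 0.999 and 0.641. A 2-fold change of Fam20c was outside all 3 intervals.

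The Wnt antagonists did not pass the test in any comparison either. Sost, which encodes sclerostin, the target of the antibody romosozumab, was at 21.7, 22.4 and 12.3 CPM in the Sham libraries, 19.4, 24.5 and 16.1 CPM in those of OVX and 18.1, 16.3 and 28.9 CPM in those of OVX-AS-IV-High. Sham replicate 3 was the lowest and OVX-AS-IV-High replicate 3 the highest of the 9 libraries, and the groups overlapped. Its log2FC was 0.09 (SE 0.285, 95% interval -0.55 to 0.73) for OVX vs. Sham, 0.08 (-0.56 to 0.72) for OVX-AS-IV-High vs. OVX and 0.17 (-0.47 to 0.81) for OVX-AS-IV-High vs. Sham, with edgeR adjusted p of 0.891, 0.992 and 0.788. All 3 intervals lay within a 2-fold change in either direction, while each log2FC changed sign when a single library was left out.

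Dkk1, the other secreted antagonist, was at 13.7, 11.5 and 9.52 CPM in the Sham libraries, 9.54, 7.57 and 14.9 CPM in those of OVX and 10.0, 13.7 and 15.0 CPM in those of OVX-AS-IV-High. Its groups overlapped as well, with OVX replicate 2 the lowest library. The log2FC was -0.12 (SE 0.266, 95% interval -0.72 to 0.48) for OVX vs. Sham, 0.27 (-0.32 to 0.87) for OVX-AS-IV-High vs. OVX and 0.16 (-0.44 to 0.75) for OVX-AS-IV-High vs. Sham, with edgeR adjusted p of 0.839, 0.945 and 0.789. Pdpn, the early osteocyte marker, was at 13.1, 10.1 and 11.7 CPM in the Sham libraries, 16.3, 11.7 and 11.8 CPM in those of OVX and 9.91, 15.2 and 8.25 CPM in those of OVX-AS-IV-High. Pdpn is also made by lymphatic endothelium and stromal cells, and its groups overlapped. It had a log2FC of 0.19 (SE 0.241, 95% interval -0.35 to 0.74) for OVX vs. Sham, -0.26 (-0.80 to 0.28) for OVX-AS-IV-High vs. OVX and -0.06 (-0.61 to 0.48) for OVX-AS-IV-High vs. Sham, with edgeR adjusted p of 0.691, 0.942 and 0.914.

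**Figure D3:**
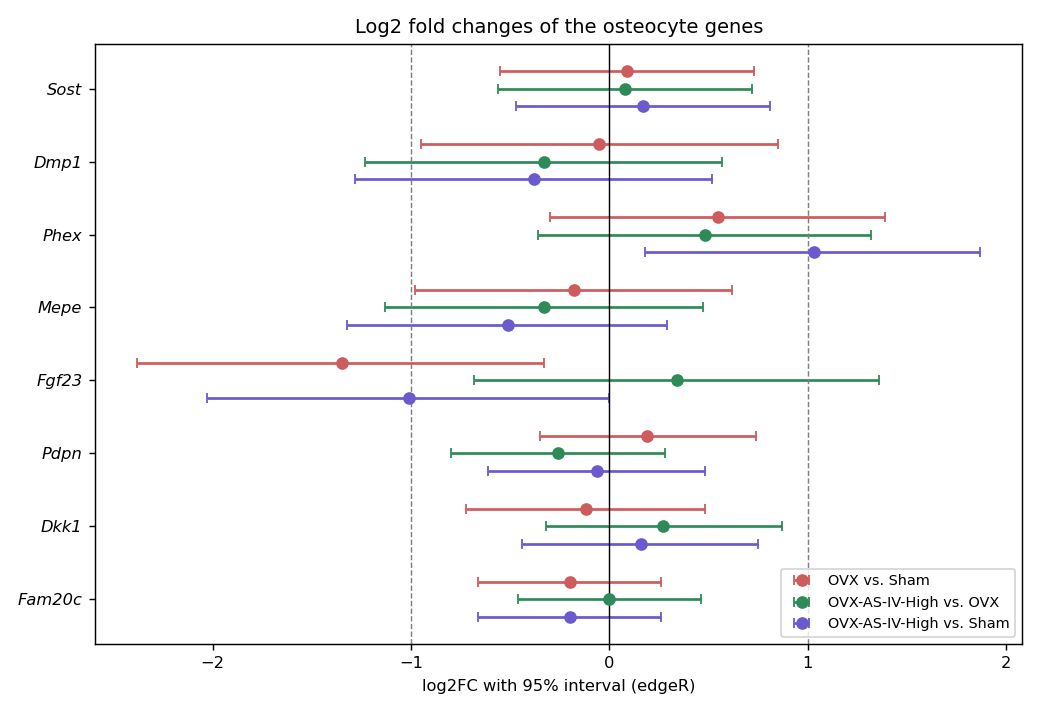
The log2FC of each member (horizontal axis, edgeR) is plotted as a point with its 95% interval for the 3 comparisons; dashed lines mark a 2-fold change. The intervals of Fgf23 in OVX vs. Sham (-2.38 to -0.33) and of Phex in OVX-AS-IV-High vs. Sham (0.18 to 1.87) leave out 0.

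Over the list as a whole the members did not share a direction, with 3 members above 0 and 5 below 0 in OVX vs. Sham. The median log2FC of the 8 members was -0.09 for OVX vs. Sham, 0.04 for OVX-AS-IV-High vs. OVX and -0.13 for OVX-AS-IV-High vs. Sham, against -0.01, -0.02 and -0.01 over all genes tested. Between OVX-AS-IV-High and OVX no member was called, 0 of 8 against 0.830% of all genes, and no member had groups that did not overlap, 0 of 8 against 12.7%. The count of members with an unadjusted p below 0.05 in that comparison was 0 by edgeR, and DESeq2 gave 0 members at an adjusted p below 0.05. Of the 8 intervals, 6 lay within a 2-fold change in OVX vs. Sham and 4 in each of the other comparisons. The test of any difference among the 3 groups passed an unadjusted p of 0.05 for Fgf23 alone, 1 of 8 members against 16.5% of all genes, with an edgeR adjusted p of 0.259. Fgf23 did not pass it in 4 of 9 fits with a library left out, without Sham replicate 1 or 3 or OVX replicate 1 or 2. For Phex the adjusted p of that test was 0.334.

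Dmp1 varied with Mepe and with Fam20c from library to library, although no pair of members passed the adjustment over all pairs. Across the 9 libraries, the Pearson r of log2 CPM between Dmp1 and Mepe was 0.83, with an exact permutation p of 0.00454 and an adjusted p of 0.113 over the 28 pairs. Spearman's rho was 0.67, with an exact permutation p of 0.0589 and an adjusted p of 0.550. Dmp1 and Fam20c, a substrate and its kinase, had r = 0.81 (exact permutation p 0.00805, adjusted 0.113) and rho = 0.83 (exact permutation p 0.00827, adjusted 0.231). Without the 2 libraries farthest from the median of Dmp1, r was 0.60 for Dmp1 with Mepe and 0.64 for Dmp1 with Fam20c. After the group means were taken out, r stayed at 0.81 and 0.80, so the relation was as strong within groups. The r of 0.71 between Mepe and Fam20c was 0.15 without the 2 libraries farthest from the median of Mepe. With 1 library left out it was 0.54 to 0.83, and with group means removed it was 0.68.

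Phex and Fgf23 had a pooled r of 0.00 and an r of 0.81 once group means were removed, with the Sham mean the highest of the 3 for Fgf23 and the lowest for Phex. The rise was not particular to this pair. Removing group means also raised r of Phex with Fam20c (0.32 to 0.79), Dmp1 (0.27 to 0.71), Mepe (0.07 to 0.56) and Pdpn (0.03 to 0.18). With Dkk1 it stayed at 0.39, and with Sost it went from -0.27 to -0.56. No p was computed for r with group means removed. Of all 28 pairs, 19 had r above 0, the median was 0.08, and 4 had an unadjusted exact permutation p below 0.05 and 0 an adjusted one. For Sost, r was -0.37 with Dmp1, -0.33 with Fam20c, -0.27 with Phex, -0.26 with Fgf23, 0.08 with Mepe and 0.09 with Dkk1. The lowest r of all pairs was -0.42, between Sost and Pdpn, with an exact permutation p of 0.257, and no r of Sost had a smaller p. The 9 libraries share 3 groups and the same table, so these are descriptions of how the libraries vary.

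**Figure D4:**
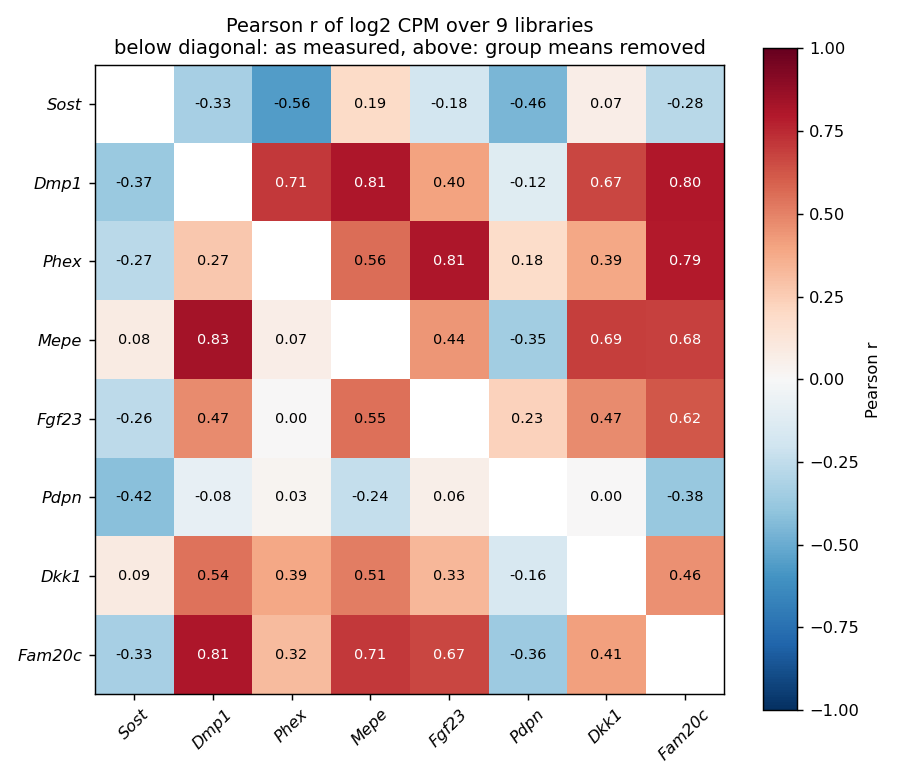
The grid gives the Pearson r of log2 CPM for each pair of members over the 9 libraries, as measured below the diagonal and with group means removed above it, on a colour scale from -1 to 1. Dmp1, Mepe and Fam20c form the block of high values (0.71 to 0.83 as measured), and Phex with Fgf23 is 0.00 below the diagonal and 0.81 above it. Phex is also higher above the diagonal than below it with Fam20c, Dmp1, Mepe and Pdpn.

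The genes whose pattern was most like each member were taken as the 3 with the highest r of log2 CPM over the 9 libraries, among 14471 genes with a mean of at least 1 CPM. For Fgf23 they included Dmwd (r = 0.959) and Zfp592 (0.944), and for Phex they were Mix23, Mrps6 and Fmnl2, each at 0.955. Mepe was nearest to Il17d (0.927), Plekhg2 (0.919) and Rab13 (0.910), Dmp1 to Ehmt2 (0.888), Potef (0.867) and Prkd1 (0.859), and Fam20c to Sema5a (0.924), Reep6 (0.899) and Lctl (0.894). Sost was nearest to LOC120102934 (0.921), Ccdc92b (0.916) and Pdk1 (0.886), and Pdpn to S100a10 (0.891), Lrrc3 (0.862) and Zfp7 (0.856). Dkk1 was nearest to Stfa2 (0.952), Csta3 (0.931) and Stfa2l3 (0.925), 3 genes of the stefin A family, whose near-identical copies can share reads. They are the highest of 14471 values each, so these r are a description and not a test.

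The wider FGF23 and phosphate pathway held no called gene. Of its 14 listed genes, 12 were tested and 0 were called in any of the 3 comparisons, with median log2FC of -0.03, -0.06 and -0.13 in the order OVX vs. Sham, OVX-AS-IV-High vs. OVX and OVX-AS-IV-High vs. Sham. Over all genes tested 3.11%, 0.830% and 3.15% were called in that order, so 0 of 12 is no result about the list. Slc20a1, a phosphate importer of the cell surface, was at 193, 199 and 192 CPM in Sham libraries, 162, 133 and 140 in OVX libraries and 146, 160 and 149 in OVX-AS-IV-High libraries. All Sham libraries of Slc20a1 were above all others, with a log2FC of -0.42 (SE 0.0950) in OVX vs. Sham, under the fold threshold. Its edgeR p was 0.00144 unadjusted and 0.140 adjusted. Phospho1, a phosphatase of matrix vesicles, was at 90.7, 78.3 and 101 CPM in Sham libraries, 59.2, 61.0 and 77.1 in OVX libraries and 68.1, 71.6 and 75.2 in OVX-AS-IV-High libraries, again with Sham above the other groups. Its log2FC in OVX vs. Sham was -0.45 (SE 0.130), with an edgeR p of 0.00642 unadjusted and 0.167 adjusted. Kl, which encodes the FGF23 co-receptor Klotho, and Cyp24a1, a vitamin D hydroxylase, were the 2 listed genes below the filter on low counts. Furin, a protease that cuts FGF23, had a log2FC of -0.10, and Galnt3, the glycosyltransferase that protects it from cutting, had 0.01. Alpl, the tissue-nonspecific alkaline phosphatase, had 0.18.

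The receptors of sclerostin and DKK1 were likewise without a call. Of the receptors and partners, 8 of 11 listed genes were tested and 0 were called in each comparison (median log2FC -0.02, -0.08 and -0.10). Lrp4, which anchors sclerostin, had a log2FC of -0.03 for OVX vs. Sham and 0.19 for OVX-AS-IV-High vs. OVX, and Lrp5, the Wnt co-receptor, had -0.09 in both. Kremen1, a DKK1 receptor, had -0.02 and -0.07, and Dkk3 had -0.02 and -0.23. Of the Wnt beta-catenin target genes, 12 of 13 were tested and 0 were called (medians 0.22, -0.19 and 0.10). At the shares called over all genes (3.11%, 0.830% and 3.15%), 0 calls among the receptors and partners or these targets is no result about either list. Lef1 had a log2FC of 0.43 in OVX vs. Sham, Twist1 0.28, Apcdd1 0.19 and Nkd2 -0.18. All Sham libraries of Nkd2 (46.6 to 50.2 CPM) were above those of OVX (40.7 to 45.1) and OVX-AS-IV-High (31.6 to 41.8). For Lef1, Twist1 and Apcdd1 the Sham libraries overlapped both groups. In OVX-AS-IV-High vs. Sham, Nkd2 had a log2FC of -0.42, under the fold threshold, with an edgeR p of 0.00368 unadjusted and 0.125 adjusted. Groups did not overlap for 23.3% and 19.9% of all genes in these comparisons with Sham. The other genes of the SIBLING family were Spp1 (osteopontin) at a log2FC of 0.37 and Ibsp (bone sialoprotein) at 0.38 in OVX vs. Sham, 0 of 2 tested being called, and Dspp, which is known from dentin, was at 0 counts in 8 of 9 libraries.

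Among 10 further genes known to be enriched in osteocytes, 1 was called against Sham in OVX and the same 1 in OVX-AS-IV-High, and 0 between the ovariectomized groups (median log2FC 0.03, 0.01 and -0.07, the last of them between the ovariectomized groups). Over all genes tested 3.11% and 3.15% were called in OVX and OVX-AS-IV-High against Sham, and 0.830% between the ovariectomized groups. At these shares 1 call among 10 genes is no result about the list. The called gene was Kcnk2, a stretch-activated potassium channel. The Sham libraries had 2.64, 3.20 and 1.83 CPM, the OVX libraries 4.77, 7.04 and 4.94 CPM and the OVX-AS-IV-High libraries 4.16, 6.77 and 5.88 CPM. Every library of the ovariectomized groups was above every Sham library, with a log2FC of 1.13 (SE 0.289) in OVX vs. Sham and an edgeR adjusted p of 0.153. Gja1, the gap junction protein connexin 43 that links osteocyte dendrites, had a log2FC of 0.85, Capg 0.14, Mef2c, a transcription factor that acts on Sost, -0.03, and Ackr3 -0.37.

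Markers of other cells in bone differed between libraries, and the values stand here because the members were measured in whole tissue. The summed CPM of the 8 members ranged from 509 to 544 in Sham, 300 to 781 in OVX and 341 to 531 in OVX-AS-IV-High. The 12 osteoblast matrix genes ranged from 7740 to 19083 in Sham, 14706 to 23871 in OVX and 7802 to 20367 in OVX-AS-IV-High, with Sham replicate 3 far above the other Sham libraries. Of these 12, 1 was called in OVX vs. Sham, Bglap (osteocalcin), which rose with a log2FC of 1.21 and an edgeR adjusted p of 0.199, and the list's median was 0.55. Skeletal muscle genes, 11 of 12 listed being tested, ranged from 1775 to 9808 CPM in Sham, 1748 to 3614 in OVX and 615 to 5076 in OVX-AS-IV-High, and 0 were called (median log2FC -1.15 in OVX vs. Sham). At the share called over all genes in OVX vs. Sham (3.11%), 1 of 12 and 0 of 11 are no result about either list. No gene tested in these lists was at 0 in any library.

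Fgf23 and Phex were also fitted with each of these sums as a covariate. The median log2FC in OVX vs. Sham was 0.55 for the osteoblast matrix list and -1.15 for the skeletal muscle list, so neither covariate is free of group. Neither sum measures the number of osteocytes, and cell composition as a cause was not tested. With the osteoblast matrix sum the log2FC of Fgf23 in OVX vs. Sham was -2.0 (SE 0.402) at an edgeR adjusted p of 0.209. With the skeletal muscle sum it was -1.71 (SE 0.399) at an edgeR adjusted p of 0.136. For Phex, the osteoblast matrix covariate gave a log2FC of -0.06 in OVX vs. Sham in place of 0.55. The log2FC of Phex between OVX-AS-IV-High and OVX was 0.88 (SE 0.240) under it in place of 0.48, still under the fold threshold, at an edgeR adjusted p of 0.474. In OVX-AS-IV-High vs. Sham, Phex had a log2FC of 0.82 (SE 0.224) under the osteoblast matrix covariate and 0.70 (SE 0.351) under the skeletal muscle covariate, both below the fold threshold, at edgeR adjusted p of 0.103 and 0.353. Fam20c in OVX vs. Sham was at -0.47 (SE 0.194) with the osteoblast matrix sum and -0.40 (SE 0.157) with the skeletal muscle sum in place of -0.20. Against Sham, Fam20c in OVX-AS-IV-High was at -0.27 and -0.45 with these sums, and no edgeR adjusted p of Fam20c in these fits was below 0.212.

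Among the remaining lists, the adipocyte genes were called most often. In OVX vs. Sham 5 of 9 rose, Adipoq, Plin1, Cidec, Lep and Retn, with edgeR adjusted p between 0.129 and 0.206. The same 5 rose in OVX-AS-IV-High vs. Sham, and their summed CPM was 514 to 708 in Sham, 768 to 1016 in OVX and 762 to 1026 in OVX-AS-IV-High. In OVX-AS-IV-High vs. Sham, Matn1 of the 10 chondrocyte genes had a log2FC of -2.14 and Ccl21 of the 4 lymphatic endothelial genes tested had -2.28, and both were called. No gene was called in any comparison among the 8 osteoclast, 9 erythroid, 9 neutrophil, 7 B lineage, 7 endothelial and 6 marrow stromal genes tested. At the shares called over all genes (3.11%, 0.830% and 3.15%), 0 calls in lists this short is no result about them. Summed B lineage CPM was 671 to 868 in Sham, 1145 to 1209 in OVX and 795 to 1151 in OVX-AS-IV-High, and summed chondrocyte CPM was 1602 to 3795, 775 to 2544 and 1251 to 2400. The part of these other cell types in the member values was not tested.

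**Figure D5:**
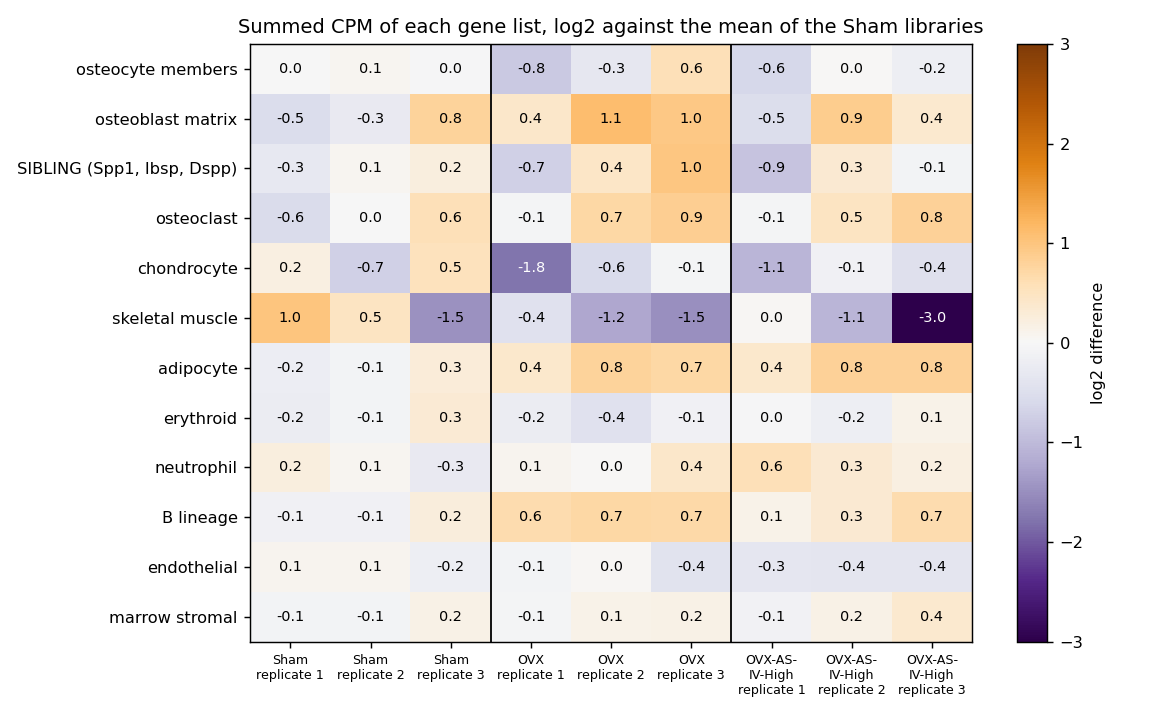
The map gives the summed CPM of each gene list (lines) in each library (columns) as the log2 difference from the mean log2 value of the 3 Sham libraries. The adipocyte list is higher in all 6 libraries from ovariectomized rats (762 to 1026 CPM) than in Sham (514 to 708 CPM), and skeletal muscle has the widest range, 615 to 9808 CPM.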

How the data were processed

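Poly(A) mRNA from bone was sequenced with strand-specific libraries. The authors aligned reads with TopHat and Bowtie2 and quantified them with eXpress, on mRatBN 7.2 per the submitters' processing notes. The deposited tables hold, per gene, counts in whole numbers, tested here, and FPKM, used for levels between genes; each of 11928 genes with 100 or more counts in every library gave 1 length within 1% in all libraries, so both tables hold the same reads. How eXpress estimates became whole numbers is not given in the sources used here. Depth was 34874880 to 37298250 counts per library.

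All 9 libraries entered 1 edgeR 4.0.16 quasi-likelihood fit (R 4.3.3, TMM, filterByExpr with a count minimum of 10, 16874 genes, biological coefficient of variation 0.256), with Benjamini-Hochberg adjustment over all genes; the study's negative binomial test was replaced by edgeR. CPM for display used TMM, and log2 CPM a prior count of 2. DESeq2 1.42.0, limma 3.58.1, RLE factors, no filter, 2-group fits, a replicate block, FPKM with pseudocounts of 1 and 0.1, a fold threshold of 0.58 (that of the study's methods), the osteoblast matrix and skeletal muscle sums as covariates and leaving out each library were the alternatives. On simulated data with 200 genes changed 3-fold in OVX vs. Sham (16677 genes), 189 passed the thresholds and 145 had an adjusted p below 0.05. Genes were drawn independently there, without variation shared between genes such as that of the muscle and osteoblast sums. The simulated rate need not hold for these libraries. Deviations from group means had r of 0.310, 0.158 and 0.130 in same-numbered libraries of OVX and OVX-AS-IV-High. OVX replicate 2 with OVX-AS-IV-High replicate 3 had 0.178, and the other differently numbered pairs had -0.283 to -0.0464. Same-numbered pairs had 0.314, -0.158 and 0.435 for Sham with OVX-AS-IV-High, and 0.200, -0.161 and 0.253 for Sham with OVX. Whether the numbers mark pairs was not tested. The replicate block, fitted over all 9 libraries, changed no member's call between OVX-AS-IV-High and OVX. Correlations used scipy 1.17.1 with all 362880 pairings.

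Named were all members, the 3 genes most correlated with each, genes of the other lists past the thresholds and at most 4 further genes per list by FPKM; Kl, Cyp24a1, Galnt3 and the Phex to Fgf23 ratio were added after values were seen, and 1 gene that the rule names is not reported here. Members and lists were chosen with earlier results of these data known. Promoter windows came from RefSeq (GRCr8), and no coordinates were converted.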

Additional observations from a re-analysis of the deposited data

How the results depend on the processing

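With all libraries kept, the members called in OVX vs. Sham stayed at 1 except 0 with limma on log2(FPKM + 1), where Fgf23 was at -0.74. In OVX-AS-IV-High vs. Sham the count went from 1 to 2 with DESeq2, without the filter on low counts and with the replicate block, as Fgf23 joined Phex (-1.01, -1.0 and -1.09), and to 0 with limma on log2(FPKM + 1). Fgf23 was also called there with limma on log2(FPKM + 0.1) (-1.07) and with the osteoblast matrix (-1.32) or skeletal muscle (-1.55) covariate, while Phex was not (0.99, 0.82 and 0.70; 0.84 with limma on log2(FPKM + 1)). In the test over 3 groups, 2 members passed without the filter, with the replicate block and with the osteoblast matrix covariate (Phex and Fgf23), and 2 with the skeletal muscle covariate (Fgf23 and Fam20c). Signs turned for Phex in OVX vs. Sham (-0.06) and Sost in OVX-AS-IV-High vs. OVX (-0.08) with the osteoblast matrix covariate, for Fam20c in OVX-AS-IV-High vs. OVX with both limma fits (-0.01 each) and the skeletal muscle covariate (-0.05), and for Pdpn in OVX-AS-IV-High vs. Sham with the skeletal muscle covariate (0.08). The share of all genes that passed is given for the main fit alone and not for these alternatives. Changes in the number of members are therefore no result about the list, and their cause was not tested.

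Leaving out 1 library at a time gave 0 to 1 called members in OVX vs. Sham (0 without Sham replicate 3), 0 to 1 in OVX-AS-IV-High vs. Sham (0 without Sham replicate 1; Fgf23 in place of Phex without Sham replicate 2 or OVX-AS-IV-High replicate 2) and 0 to 3 in the test over 3 groups (0 without Sham replicate 1 or OVX replicate 2, Phex in place of Fgf23 without Sham replicate 3 or OVX replicate 1, 2 without OVX-AS-IV-High replicate 1, 3 without OVX replicate 3). The log2FC ranged from -0.14 to 0.24, -0.22 to 0.25 and -0.13 to 0.32 for Sost in OVX vs. Sham, OVX-AS-IV-High vs. OVX and OVX-AS-IV-High vs. Sham. In OVX vs. Sham it ranged from -0.77 to 0.27 for Dmp1, -0.63 to 0.14 for Mepe and -0.43 to 0.08 for Dkk1. In OVX-AS-IV-High vs. OVX it ranged from -0.65 to 0.39 for Dmp1, -0.65 to 0.12 for Mepe, -0.15 to 0.23 for Fam20c and 0.05 to 0.73 for Fgf23, and in OVX-AS-IV-High vs. Sham from -0.35 to 0.11 for Pdpn. Leaving out a library, r stayed between 0.75 and 0.87 for Dmp1 with Mepe and between 0.72 and 0.88 for Dmp1 with Fam20c. The replicate block left Fgf23 at -1.35 in OVX vs. Sham and Phex at 1.03 in OVX-AS-IV-High vs. Sham. The block also made Fgf23 a call in OVX-AS-IV-High vs. Sham (-1.09), and no further call in these comparisons changed with it. For fits with a library left out, the share of all genes that passed is likewise not given. Their counts of members are no result about the list. With 3 libraries a group, the median SE of a member's log2FC was 0.321, which limits what could be seen of changes under 2-fold.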
